A study of Homo sapiens with 12 samples.

Results

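The kinesins are motor proteins that walk along, or take apart, microtubules, and the values described here are those of 41 kinesin genes among the 18417 genes that could be named on the arrays. The members were all genes, named alone on at least 1 probe set, whose symbol is KIF followed by a number, or KIFC1, KIFC2 or KIFC3. They were split by textbook function into 13 mitotic kinesins, 17 transport kinesins and 11 others, which serve cilia or signalling, have several roles or have an uncertain one. KIF4B is read only by a probe set that also reads KIF4A and so has no value, and the antisense RNA KIF25-AS1 was not taken as a kinesin.

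Side population (SP) cells were set against main population (MP) cells of 4 established human lines of a T-lineage lymphoma, anaplastic large cell lymphoma (ALCL). SP cells are those that stain weakly with the DNA dye Hoechst in flow cytometry, and MP cells are those that hold the dye. The line SUDHL-1 gave 3 SP and 3 MP arrays, and DEL, Karpas299 and SUPM2 gave 1 SP and 1 MP array each. All cells were in logarithmic growth in the same medium and all were stained with the dye, and the labels give no other treatment and no engineered allele for any group. The labels do not say that the SUDHL-1 replicates came from separate cultures, so the p-values may rest on technical spread between these samples alone.

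Mitotic kinesins build the spindle, align chromosomes and cut the daughter cells apart, and most of them are made and destroyed anew in each cell cycle. Transport kinesins carry vesicles, organelles and RNA in all cells and are best known from neurons. Genes that are silent in resting cells and switched on late in the cycle often hold a cell cycle genes homology region (CHR) close to their start, where repressor and activator complexes bind in turn, with boxes for the factor NF-Y upstream of it.

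Promoter sequence was available for 33 of the 41 kinesins, as windows of 300 bases that run from 250 bases before to 50 bases after the annotated start (RefSeq, GRCh38.p14). The CHR was searched as TTTGAA or TTCGAA and the NF-Y box as CCAAT, on both strands, so that TTCAAA and ATTGG are the same motifs read on the other strand. The CHR letters were in the window of 10 of 13 mitotic kinesins (76.9%), 1 of 12 transport kinesins (8.33%) and 1 of 8 others (12.5%), and in 19.5% of the 27305 genes of the promoter table. The NF-Y box was in 10 of 13 mitotic (76.9%), 4 of 12 transport (33.3%) and 3 of 8 other kinesins (37.5%), against 39.7% of all genes. Both motifs were in 9 of 13 mitotic kinesins (69.2%), in the transport motor KIF5B and in KIF24, against 7.85% of all genes. These are matches of letters, which say nothing of whether a factor binds there.

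The stretches below run from position -150 to position 30 of the start, 5′ to 3′ on the gene's strand, with the motif letters in capitals. KIF11 (chr10:92592980-92593159, plus strand), KIF23 (chr15:69414199-69414378, plus strand) and KIFC1 (chr6:33391673-33391852, plus strand) are shown as mitotic kinesins with both motifs. KIF20A (chr5:138178962-138179141, plus strand) is shown as a mitotic kinesin with NF-Y boxes and no CHR letters. KIF5B (chr10:32056396-32056575, minus strand) is the transport kinesin with both motifs, and KIF3A (chr5:132737517-132737696, minus strand) has neither.
KIF11: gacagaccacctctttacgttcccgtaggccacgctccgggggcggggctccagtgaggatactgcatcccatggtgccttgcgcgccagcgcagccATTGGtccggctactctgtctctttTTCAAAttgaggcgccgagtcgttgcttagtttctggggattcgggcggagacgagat
KIF23: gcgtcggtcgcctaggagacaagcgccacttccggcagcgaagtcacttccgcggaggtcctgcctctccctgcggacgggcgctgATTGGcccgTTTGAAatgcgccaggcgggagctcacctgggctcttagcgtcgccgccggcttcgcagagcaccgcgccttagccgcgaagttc
KIFC1: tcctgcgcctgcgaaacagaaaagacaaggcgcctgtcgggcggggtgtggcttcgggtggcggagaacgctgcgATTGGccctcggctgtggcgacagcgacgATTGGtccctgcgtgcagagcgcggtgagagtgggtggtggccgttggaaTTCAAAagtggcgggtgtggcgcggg
KIF20A: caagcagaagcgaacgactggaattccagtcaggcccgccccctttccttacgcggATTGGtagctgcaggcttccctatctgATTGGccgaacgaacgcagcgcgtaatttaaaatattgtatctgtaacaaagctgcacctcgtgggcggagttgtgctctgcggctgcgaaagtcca
KIF5B: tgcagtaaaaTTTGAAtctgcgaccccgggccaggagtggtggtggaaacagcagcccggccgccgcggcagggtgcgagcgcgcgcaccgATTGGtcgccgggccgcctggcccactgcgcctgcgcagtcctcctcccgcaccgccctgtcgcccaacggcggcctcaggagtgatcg
KIF3A: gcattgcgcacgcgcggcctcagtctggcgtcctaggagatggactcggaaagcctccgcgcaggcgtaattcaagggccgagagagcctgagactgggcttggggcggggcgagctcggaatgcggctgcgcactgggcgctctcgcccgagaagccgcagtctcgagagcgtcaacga
In KIF11 and KIF23 the NF-Y box lies upstream of the CHR letters, at positions -53 and -64, with the CHR letters at -28 and -55. KIFC1 has its CHR letters just after the start and a pair of NF-Y boxes before it. Over the mitotic kinesins, CHR matches began between positions -55 and 31, and the match in KIF5B began at -140. KIF22 has more than 1 annotated start, and its match, seen from both, was counted once at its distance from the nearer start. The mitotic kinesins with neither motif in the window were KIF2B and KIF2C.

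**Figure D1:**
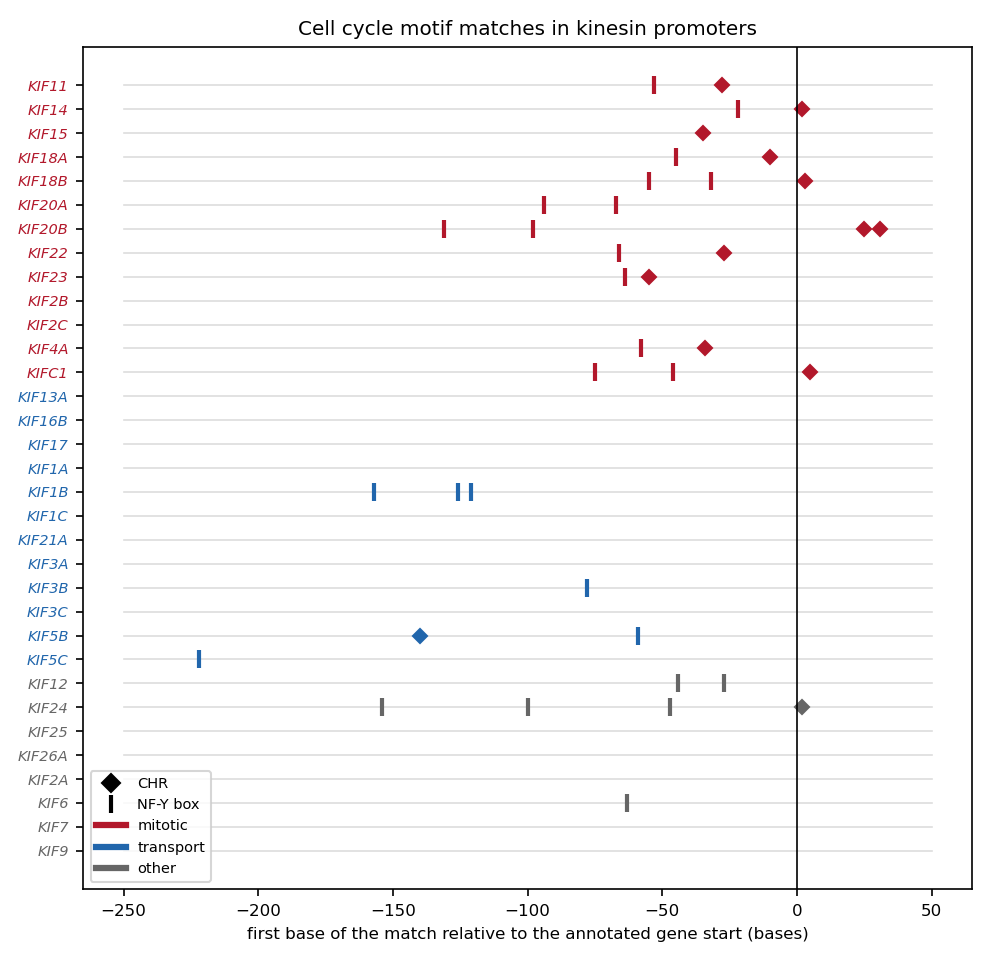
Positions of CHR letters (diamonds) and NF-Y boxes (bars) in the promoter windows of 33 kinesins; the x axis is the distance of the first base of the match from the annotated start in bases, and colours mark the class. CHR matches are drawn for 10 of 13 mitotic genes, between -55 and 31 (KIF22 from the nearer of its annotated starts), and for 1 of 12 transport genes.

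Signals are given on the log2 scale, on which a difference of 1 is a doubling, and each value of a gene comes from the probe set of highest mean over the 12 arrays. A level on this scale compares arrays for 1 gene, not 1 gene with another. The sources used here give no array position for these probe sets on a named genome build. The ALCL and T-lineage markers (8 of 9 measured, ALK not among them) had array means of 6.94 to 8.90 in SP and 7.05 to 9.08 in MP cells. These means hide unlike members. CD3E lay at 3.11 to 4.76 on all arrays, and CD2 at 3.39 to 4.54 outside SUPM2, where it read 8.96 and 9.42. CD4 lay at 3.45 to 4.15 in SUDHL-1 and 4.22 to 5.39 in DEL, against 9.32 to 9.66 in Karpas299 and SUPM2. Markers of B cells (3 measured) had means of 4.03 to 5.04 in SP and 4.09 to 4.91 in MP cells, myeloid markers (4) 3.97 to 4.87 and 4.0 to 5.55, and stromal and epithelial markers (5) 4.14 to 5.22 and 4.04 to 5.50. The erythroid marker HBB lay at 4.10 to 4.8 in SP and 3.54 to 4.56 in MP cells, and neuronal markers (3) at 3.01 to 4.29 and 3.20 to 4.49. The myeloid means include CSF1R, which read 7.45 to 7.96 in SP and 7.52 to 8.59 in MP cells of DEL, Karpas299 and SUPM2, against 4.90 to 5.55 on the 6 SUDHL-1 arrays. They also include CD14, at 6.31 in MP cells of SUPM2. Among the stromal and epithelial markers, KRT18 read 7.23 to 7.78 in DEL, Karpas299 and SUPM2, and DCN 6.03 in MP cells of DEL. The B cell marker PAX5 read 6.65 in SP and 6.78 in MP cells of Karpas299.

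The first question was whether SP and MP cells of the 4 lines differ in their kinesins, and whether mitotic and transport kinesins do so alike. Mitotic kinesins were higher in SP cells on the mean of the 4 lines in 12 of 13 cases (median difference 0.51), whereas transport kinesins were split, 9 of 17 higher with a median of 0.0054. Of the other kinesins 3 of 11 lay above 0 (median -0.014), and of all genes 55.6% (median 0.021). No single kinesin passed limma's test at an adjusted p under 0.05, over the 4 lines (0 of 41) or within SUDHL-1 (0 of 41), and neither did any of the 18417 genes (0% in each). At an unadjusted p under 0.05, 577 genes differed in SUDHL-1 (3.13%) and 904 over the 4 lines (4.91%). In sorted cells measured in bulk, more cells in mitosis and more transcript per cell cannot be told apart.

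Line by line, the median difference of the mitotic kinesins was 0.52 (SUDHL-1), 0.060 (DEL), 0.43 (Karpas299) and 0.83 (SUPM2), a mean of 0.46 ± 0.32 (SD, n = 4 lines). Transport kinesins had medians of 0.010, -0.020, 0.0012 and 0.077 in the same lines (0.017 ± 0.042, SD, n = 4 lines). DEL had the smallest, with 7 of 13 mitotic kinesins higher in SP cells, against 12 in SUDHL-1, 9 in Karpas299 and 12 in SUPM2. The share of all genes higher in SP cells was 49.9% (SUDHL-1), 52.7% (DEL), 49.2% (Karpas299) and 57.8% (SUPM2). The gap between the mitotic and the transport median was 0.51 (SUDHL-1), 0.080 (DEL), 0.43 (Karpas299) and 0.76 (SUPM2), a mean of 0.45 ± 0.28 (SD, n = 4 lines). The gap in SUDHL-1 was 0.31 without MP array 3 and ran up to 0.82 with another array left out. No test was made of these medians, since the members were picked with earlier results known.

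**Figure D2:**
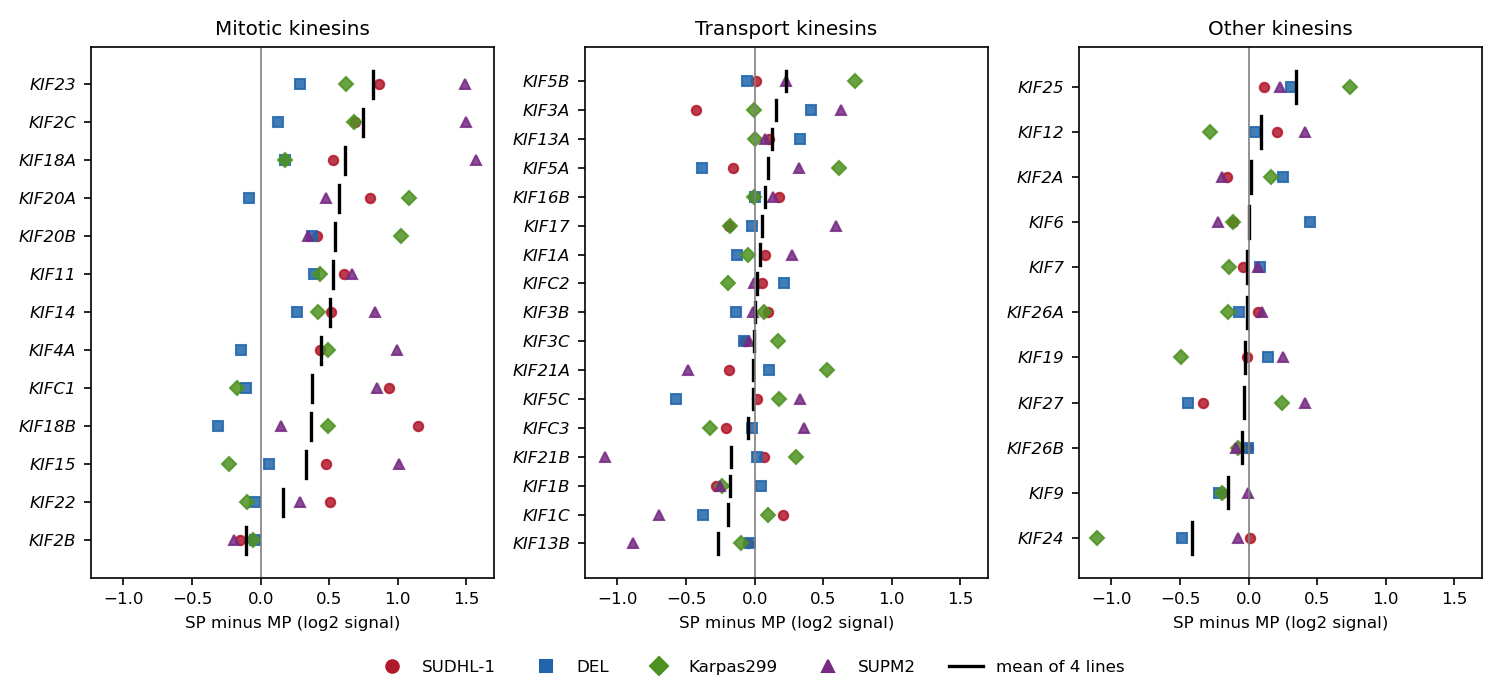
SP minus MP difference of each of 41 kinesins in log2 signal (x axis), by class, with 1 symbol per line and a black bar at the mean of 4 lines; SUDHL-1 is the mean of 3 arrays minus the mean of 3, the other lines 1 array minus 1. Means of mitotic kinesins run up to 0.82 for KIF23, and those of transport kinesins lie between -0.27 and 0.23.

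Differences above 0.5 in favour of SP cells were found for 9 of 13 mitotic kinesins in SUDHL-1 (2.57% of all genes), 0 in DEL (6.53%), 4 in Karpas299 (9.20%) and 8 in SUPM2 (14.5%). Without MP array 3 of SUDHL-1, 4 of 13 (KIF18B, KIF20A, KIF23 and KIFC1) stayed above 0.5 there and the transport motor KIF3B came to lie above it, against 3.58% of all genes. Among the 17 transport kinesins, with all arrays kept, differences above 0.5 were found for 0 in SUDHL-1 and DEL. They were found for KIF21A, KIF5A and KIF5B in Karpas299, for KIF17 and KIF3A in SUPM2, and among the 11 others for KIF25 in Karpas299. A second probe set of KIF5A gave -0.0043 in Karpas299, where the one used gave 0.62. Differences below -0.5 were those of KIF5C in DEL (8.24% of all genes), KIF24 in Karpas299 (7.62%) and KIF13B, KIF1C and KIF21B in SUPM2 (11.8%), with none in SUDHL-1 (3.14%). Each of DEL, Karpas299 and SUPM2 has 1 array per population, so a difference within such a line has no replicate check.

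SP cells were higher in 4 of 4 lines for 6 of 13 mitotic kinesins, KIF11, KIF14, KIF18A, KIF20B, KIF23 and KIF2C, against 8.09% of all genes. Outside the mitotic class, KIF13A and KIF25 did so. SP cells were lower in 4 of 4 lines for KIF2B, KIF13B, KIF26B and KIF9, against 5.65% of all genes. Some of these differences were close to 0, at -0.0040 for KIF9 in SUPM2, and -0.0059 in SUDHL-1 and -0.0074 in DEL for KIF26B. At an unadjusted p under 0.05 over the 4 lines, 7 of 13 mitotic kinesins were higher in SP cells, namely KIF20A and the 6 just given, and so was KIF25 (2.54% of all genes). None of the 41 was lower at that threshold (2.37%).

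KIF11 is the tetrameric motor that slides the spindle poles apart, and its difference had the smallest spread over the lines of the mitotic kinesins that averaged above 0. Its signals in SUDHL-1 were 8.88, 9.15 and 8.35 on the SP arrays, against 8.58, 8.27 and 7.70 on the MP arrays. It read 8.05 in SP and 7.65 in MP cells of DEL, 8.40 and 7.96 in Karpas299, and 7.16 and 6.50 in SUPM2. The SP value was the higher one in each line, while the replicate ranges of SUDHL-1 overlapped. The mean difference was 0.52 ± 0.13 (SD, n = 4 lines, higher in 4 of 4, limma adjusted p = 0.918).

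KIF23, which forms with RACGAP1 the centralspindlin complex that bundles the midzone microtubules, had the largest mean difference of all kinesins. It read 9.99, 10.48 and 9.38 on the SP arrays of SUDHL-1, against 9.5, 9.25 and 8.52 on the MP arrays. In DEL it read 8.45 in SP and 8.16 in MP cells, in Karpas299 9.04 and 8.41, and in SUPM2 7.99 and 6.51. Only the lowest SP array of SUDHL-1 lay below an MP array. The mean difference was 0.82 ± 0.51 (SD, n = 4 lines, higher in 4 of 4, limma adjusted p = 0.918).

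KIF2C depolymerises microtubules at kinetochores to free wrong attachments. It read 8.06, 8.08 and 7.31 on the SP arrays of SUDHL-1, against 7.85, 7.09 and 6.46 on the MP arrays, ranges that overlap. The line differences were 0.69 (SUDHL-1), 0.13 (DEL), 0.68 (Karpas299) and 1.5 (SUPM2), which averaged 0.75 ± 0.56 (SD, n = 4 lines, limma adjusted p = 0.918). KIF18A, which damps the swings of chromosomes at metaphase, differed by 0.52, 0.18, 0.18 and 1.57 in the same lines (0.61 ± 0.66, SD, n = 4 lines). For both genes SUPM2 gave by far the largest difference, KIF18A reading 7.72 in SP and 6.16 in MP cells there.

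KIF20A carries the Aurora B complex to the midzone. It read 8.61, 8.98 and 8.20 on the SP arrays of SUDHL-1, against 8.20, 7.56 and 7.63 on the MP arrays, so that the lowest SP array only just cleared the highest MP array. Its differences were 0.80 (SUDHL-1), -0.085 (DEL), 1.08 (Karpas299) and 0.48 (SUPM2) (0.57 ± 0.50, SD, n = 4 lines, limma adjusted p = 0.918). KIFC1, the minus-end motor that focuses spindle poles and gathers extra centrosomes, was split between the lines. It read 7.99, 8.09 and 7.34 on the SP arrays of SUDHL-1, against 7.72, 6.67 and 6.23 on the MP arrays, and differed by 0.93 (SUDHL-1), -0.11 (DEL), -0.17 (Karpas299) and 0.85 (SUPM2). Its mean was 0.37 ± 0.60 (SD, n = 4 lines).

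The remaining mitotic kinesins had mean differences of -0.11 to 0.54. KIF20B and KIF14, which act in cytokinesis, had means of 0.54 ± 0.32 and 0.51 ± 0.24, and KIF4A, the chromosome-bound partner of PRC1, 0.44 ± 0.46 (SD, n = 4 lines). KIF18B, which trims astral microtubules, had the largest difference of all kinesins in SUDHL-1, with 9.21, 8.96 and 8.46 on SP arrays and 8.39, 7.81 and 7.0 on MP arrays. Its difference there was 1.15, yet -0.31 in DEL, 0.49 in Karpas299 and 0.14 in SUPM2, and a second probe set of the gene gave 0.43 in SUDHL-1. KIF15, which backs up KIF11, averaged 0.33 ± 0.54, and the chromosome motor KIF22 0.16 ± 0.28 (SD, n = 4 lines). KIF2B, a relative of KIF2C, was the exception, with differences of -0.19 to -0.041 in the 4 lines, and it lay at 4.45 to 5.41 on all arrays.

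**Figure D3:**
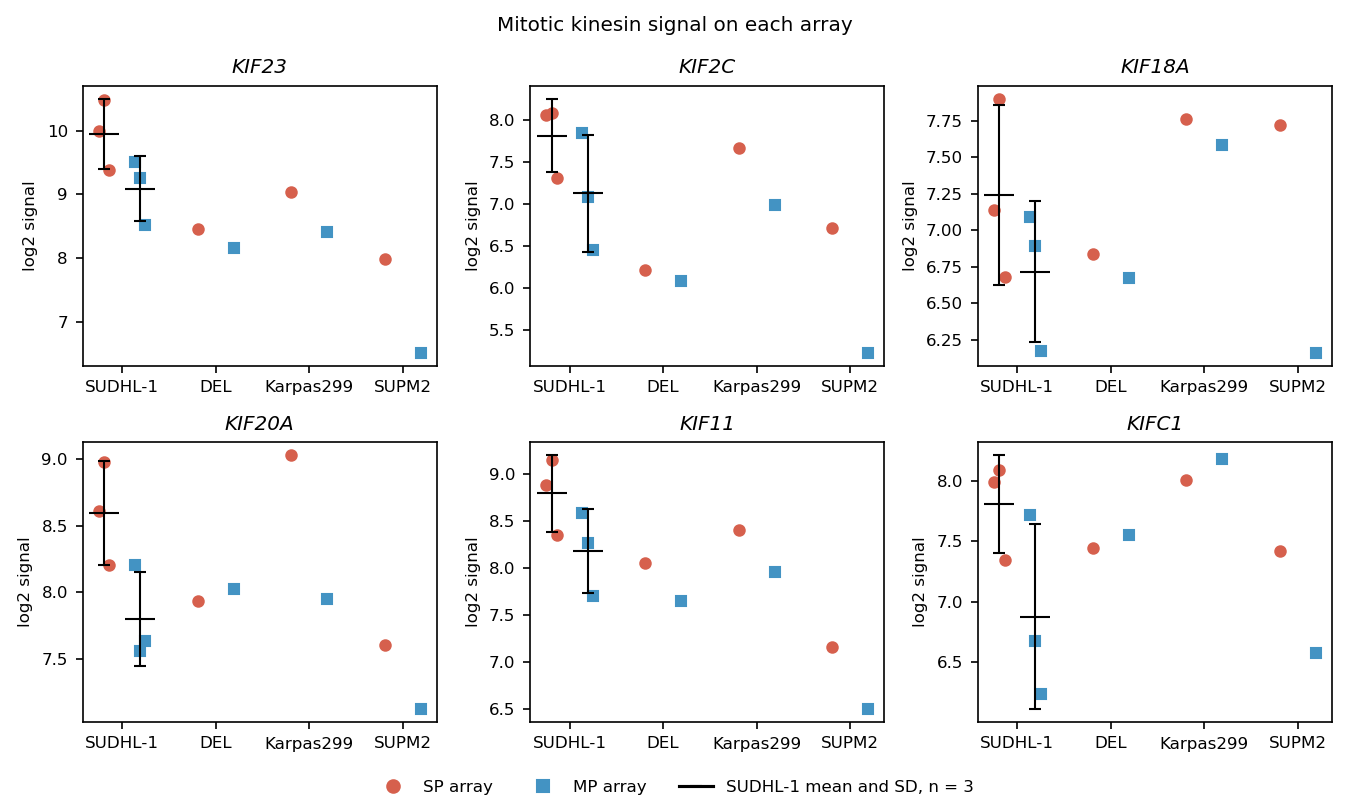
Log2 signal (y axis) of 6 mitotic kinesins on each of 12 arrays, SP as circles and MP as squares, by line; black lines give the SUDHL-1 mean and SD (n = 3). KIF23 and KIF11 are higher in SP cells of each line, in SUDHL-1 by the mean, where their SP and MP arrays overlap. KIFC1 is higher in SP cells in SUDHL-1 by the mean and in SUPM2, and lower in DEL and Karpas299.

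Within SUDHL-1 the mitotic kinesins averaged 8.20 ± 0.41 on SP arrays and 7.61 ± 0.40 on MP arrays (SD, n = 3 each), and the transport kinesins 6.03 ± 0.12 and 6.07 ± 0.22. At an unadjusted p under 0.05, KIF18B, KIF20A, KIF22, KIF23 and KIFC1 were higher in SP cells, 5 of 13 mitotic kinesins (1.66% of all genes), and no other kinesin differed. All 3 SP arrays lay above all 3 MP arrays for KIF18B, KIF20A and KIF22 (3.74% of all genes), and below them for no kinesin (3.42%). The limma differences were 1.15 for KIF18B (SE 0.36), 0.80 for KIF20A (SE 0.26) and 0.51 for KIF22 (SE 0.16), each with an adjusted p of 1.00.

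Single arrays weighed on these values. SP array 2 was the highest of the 6 for 10 of 13 mitotic kinesins, SP array 3 was the lowest SP array for 12, MP array 1 the highest MP array for 11 and MP array 3 the lowest of the 6 for 9. MP array 3 was also the highest of the 6 for 8 of 17 transport kinesins. The median mitotic difference in SUDHL-1 was 0.38 without MP array 3 and 0.83 without SP array 3. Higher in SP cells were 12 of 13 members without MP array 3 (8669 of 18417 genes). The same number was higher without both arrays numbered 3 (8025 of 18417 genes). Without MP array 3, 3 of 13 mitotic and 2 of 17 transport kinesins had all SP arrays above all MP arrays. Of all genes 7.84% did so. Without both arrays numbered 3, 12 of 13 mitotic and 6 of 17 transport kinesins did, where 15.4% of all genes did. Leaving out SP array 3, the lowest SP array for 12 mitotic kinesins, favours such separation, so nothing is read from that count. Under either removal the same 6 mitotic kinesins were higher in SP cells in 4 of 4 lines. Of all genes 7.3% were so without MP array 3 and 6.4% without both arrays numbered 3. Only the SUDHL-1 difference can change under these removals, not those of the other lines. KIF13A and KIF25 were higher in 4 of 4 lines without MP array 3 but no longer without both arrays numbered 3.

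**Figure D4:**
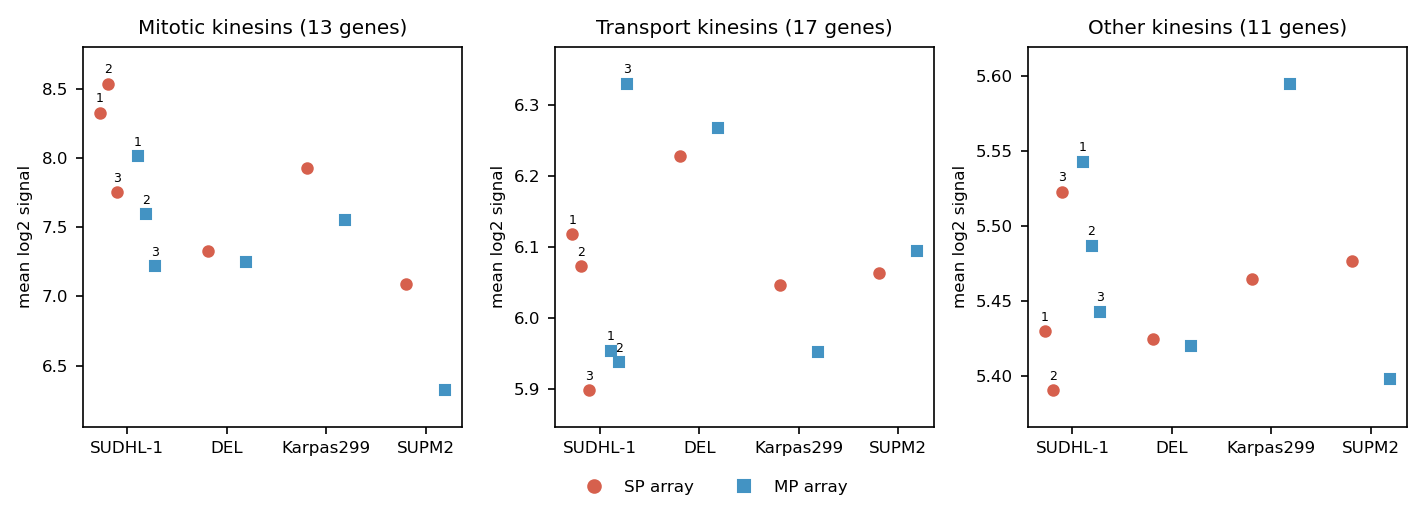
Mean log2 signal (y axis, a separate scale per panel) of the mitotic, transport and other kinesins on each of 12 arrays, by line, SP as circles and MP as squares, with the SUDHL-1 replicate numbers. In SUDHL-1 the mitotic means of SP arrays run from 7.75 to 8.54 and those of MP arrays from 7.22 to 8.01, and MP array 3 has the lowest mitotic and the highest transport mean.

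The transport kinesins showed no shared direction. KIF5B, the kinesin-1 heavy chain found in most cells, read 10.75, 10.64 and 10.27 on SP arrays of SUDHL-1, against 10.50, 10.43 and 10.71 on MP arrays. It differed by 0.010 (SUDHL-1), -0.054 (DEL), 0.73 (Karpas299) and 0.23 (SUPM2), a mean of 0.23 ± 0.36 (SD, n = 4 lines, limma adjusted p = 0.918). The difference of Karpas299 alone exceeded 0.5. Its relatives KIF5A and KIF5C averaged 0.10 ± 0.46 and -0.011 ± 0.39, and a second probe set of KIF5A gave 0.63 in SUDHL-1 where the one used gave -0.15.

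KIF3A, a motor subunit of kinesin-2, which carries cargo along cilia and elsewhere, had differences of both signs. It differed by -0.43 (SUDHL-1), 0.41 (DEL), -0.0022 (Karpas299) and 0.63 (SUPM2) (0.15 ± 0.47, SD, n = 4 lines), and its partner subunit KIF3B averaged 0.0054 ± 0.10. The SUDHL-1 difference of KIF3A was -0.21 without MP array 3 and 0.12 without both arrays numbered 3. KIF13B and KIF1C, vesicle motors of the kinesin-3 family, were lowest against MP cells in SUPM2. KIF13B read 5.72 in SP and 6.61 in MP cells of SUPM2, where the other lines differed by -0.035 to -0.099, and averaged -0.27 ± 0.41 (SD, n = 4 lines). KIF1C averaged -0.19 ± 0.42 and ranged from -0.70 in SUPM2 to 0.21 in SUDHL-1.

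KIF1B, a carrier of mitochondria and synaptic vesicle precursors, averaged -0.18 ± 0.15 (SD, n = 4 lines). In SUDHL-1 it read 7.16, 7.49 and 6.87 on SP arrays, against 6.58, 7.03 and 8.76 on MP arrays, so that MP array 3 set the sign. The SUDHL-1 difference was -0.28, and 0.37 without that array. KIF21B, which restrains microtubule growth and acts in T cells at the synapse, differed by 0.072 (SUDHL-1), 0.020 (DEL), 0.30 (Karpas299) and -1.09 (SUPM2), where it read 8.81 in SP and 9.90 in MP cells.

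Among the other kinesins, KIF24, which acts at the mother centriole to hold back ciliation, had the largest mean difference, -0.41 ± 0.51 (SD, n = 4 lines). It read 4.90 in SP and 6.01 in MP cells of Karpas299 and 4.75 and 5.23 in DEL, while SUDHL-1 (0.011) and SUPM2 (-0.078) lay near 0. KIF25 was higher in SP cells in 4 of 4 lines, by 0.35 ± 0.27 (SD, n = 4 lines, limma adjusted p = 0.918), and lay at 4.27 to 5.12 on all arrays. In SUDHL-1 its difference was 0.11, and -0.076 without SP array 3. KIF9, known from motile cilia, averaged -0.15 ± 0.099 and KIF12 0.093 ± 0.29. KIF2A, KIF6, KIF7, KIF19, KIF26A, KIF26B and KIF27 had means of -0.047 to 0.014. In all, 4 kinesins lay in the lowest 25% of genes by mean signal, 0 of them mitotic, 2 transport and 2 other.

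Whether the SUDHL-1 difference departs from that of the other lines was tested by an interaction over the 12 arrays. It called 0 of 41 kinesins and 0 of 18417 genes (0%), with 661 genes at an unadjusted p under 0.05 (3.59%). The largest was that of KIF18B, 1.04 higher in SUDHL-1 than in the mean of the other lines (SE 0.47, unadjusted p = 0.053, limma adjusted p = 1.00). No SP difference particular to SUDHL-1 was thus detected for any kinesin. On simulated data this fit recovered 11% of log2 changes of 1, so it would miss most differences of that size.

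The proteins that work with the kinesins were described in the same way, from lists chosen with earlier results known. Spindle and midzone partners of the mitotic kinesins were higher in SP cells on the mean of the lines for 18 of 18 genes (median 0.53), with 8 higher in 4 of 4 lines (8.09% of all genes) and line medians of 0.61 (SUDHL-1), 0.24 (DEL), 0.40 (Karpas299) and 0.89 (SUPM2). At an unadjusted p under 0.05, 10 were higher (2.54% of all genes) and 0 lower (2.37%), and 0 passed after adjustment. The kinase AURKA, an activator of spindle assembly, averaged 0.75 ± 0.50, the mitotic kinase PLK1 0.89 ± 0.40 and CDCA8, a subunit of the Aurora B complex, 1.08 ± 0.63 (SD, n = 4 lines). Cargo adaptors of transport kinesins were higher for 4 of 14 measured genes (median -0.064), with 0 higher and 2 lower at an unadjusted p and 0 after adjustment. Their line medians were -0.11 (SUDHL-1), -0.080 (DEL), 0.28 (Karpas299, 9 of 14 higher) and -0.26 (SUPM2). The lower ones were TRAK2, which links kinesin-1 to mitochondria, at -0.50 ± 0.43, and MADD, an adaptor of kinesin-3 motors, at -0.29 ± 0.13, while the kinesin light chain KLC2 averaged 0.26 ± 0.35 (SD, n = 4 lines). Dynein and dynactin, the motor of the opposite direction and its activator, were higher for 10 of 19 genes (median 0.024), 1 higher and 0 lower at an unadjusted p and 0 after adjustment, and had line medians of -0.020, 0.10, -0.14 and 0.24. The dynein regulator NDE1 averaged 0.56 ± 0.57, the dynactin subunit DCTN1 -0.32 ± 0.29 and the dynein chain DYNC1I1 0.21 ± 0.11 (SD, n = 4 lines).

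Levels of some kinesins also differed between the lines themselves. Among DEL, Karpas299 and SUPM2, limma's moderated F test, fitted with line and population, called 7 of 41 kinesins (17.1%) at an adjusted p under 0.05, where 13.4% of all genes were called. In this fit kinesins were thus called at a share near that of all genes. The SP and MP samples of a line stood as its replicates. The SUDHL-1 arrays were also in this fit, although that line was not compared. The error spread of the test thus came in large part from the SUDHL-1 arrays, not only from the sorted samples of DEL, Karpas299 and SUPM2. KIF16B, a kinesin-3 motor of early endosomes, averaged 6.56 in DEL, 5.52 in Karpas299 and 4.09 in SUPM2 (adjusted p = 0.0002). SP and MP samples of each line differed by 0.14 at most. KIF21B ran the other way in part, with 7.99 in DEL, 6.77 in Karpas299 and 9.36 in SUPM2 (adjusted p = 0.0016), while KIF1C averaged 7.09, 5.94 and 5.35 (adjusted p = 0.0041).

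Of the mitotic kinesins, 3 were called and each was lowest in SUPM2. KIF15 averaged 7.35 in DEL, 7.85 in Karpas299 and 5.37 in SUPM2 (adjusted p = 0.0065), KIF22 8.24, 8.67 and 7.38 (0.0059), and KIF11 7.85, 8.18 and 6.83 (0.025). KIF5A was highest in SUPM2, with 6.55 in DEL, 6.14 in Karpas299 and 7.68 in SUPM2 (adjusted p = 0.019, and 0.062 with only the 6 arrays of these lines fitted). With those 6 arrays alone 8 of 41 kinesins were called, against 7.50% of all genes, so the shares lay further apart there.

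**Figure D5:**
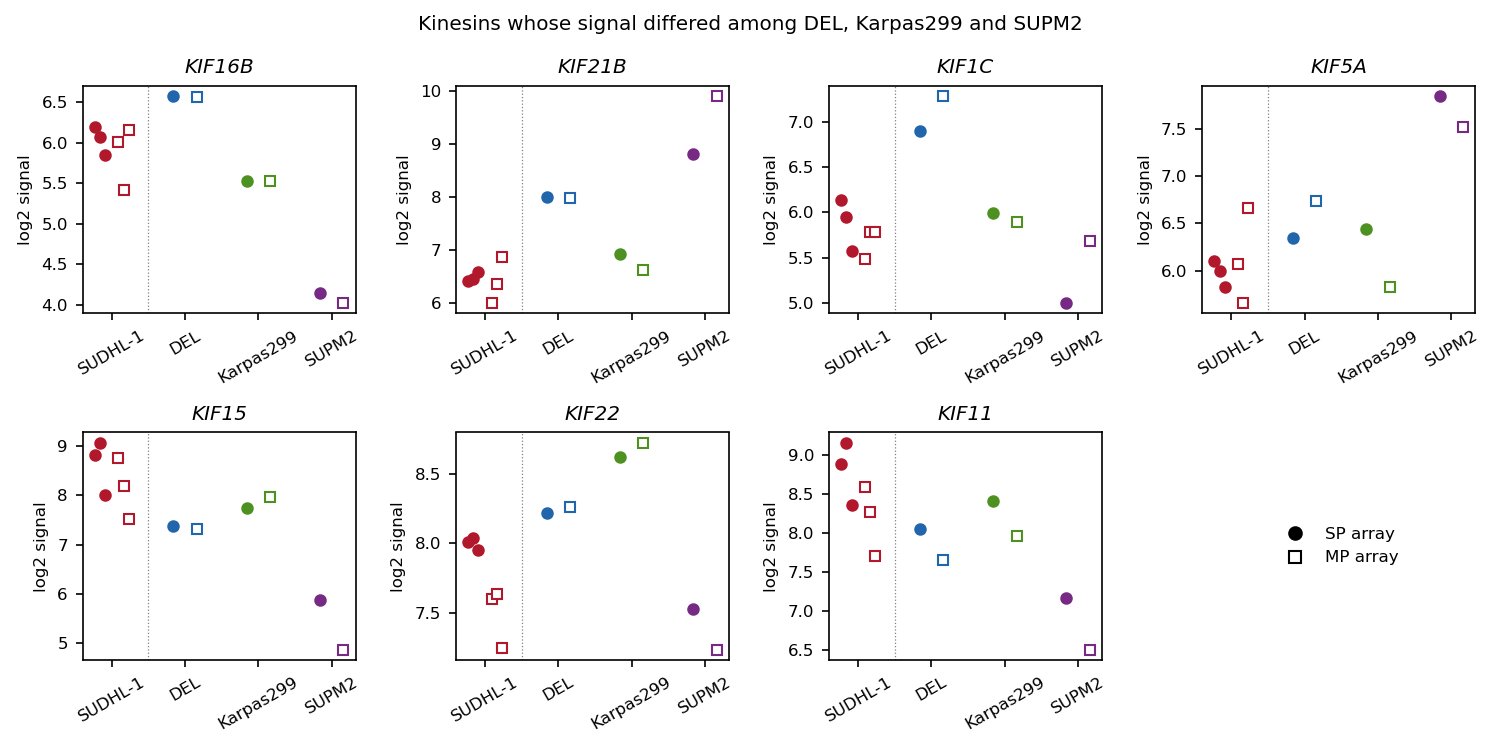
Log2 signal (y axis) of the 7 kinesins called among DEL, Karpas299 and SUPM2, on each of 12 arrays, SP as filled circles and MP as open squares. SUDHL-1, left of the dotted line, is not among the lines compared, but its arrays were in the fit and add to its error spread. KIF16B is highest in DEL and lowest in SUPM2, and KIF21B highest in SUPM2.

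SUDHL-1 was set against the mean of the other lines in the same model, with the limit that the 2 sets of arrays may have been normalized apart, so that line and array set cannot be told apart. Over all genes the median of this difference was -0.33 as deposited, 0.13 with each array centred on its median and 0.014 after a second quantile normalization. As deposited, 13 of 41 kinesins were higher in SUDHL-1 (16.4% of all genes) and 12 lower (49.2%). After centring, 23 were higher (34.6%) and 1 lower (19.6%), and after quantile normalization 19 were called (51.0%), of which 18 were higher (26.0%) and 1, KIF21B, lower. Called higher under all 3 scalings were 8 of 13 mitotic kinesins (KIF11, KIF14, KIF15, KIF18B, KIF20B, KIF23, KIF2C and KIF4A), 3 of 17 transport kinesins (KIF16B, KIF21A and KIF5B) and 2 of 11 others (KIF27 and KIF2A), against 15.5% of all genes. KIF21B was also called lower under all 3, against 19.5% of all genes.

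The levels and differences that follow are as deposited unless another scaling is named. Arrays stood as replicates in this contrast, so SE and p measure the spread between arrays, not between lines. KIF20B averaged 8.37 in SUDHL-1 (8.06 to 9.12 on 6 arrays), against 7.06 in DEL, 6.59 in Karpas299 and 6.45 in SUPM2, a difference of 1.67 (SE 0.17, adjusted p = 1.4e-05). KIF23 averaged 9.52 in SUDHL-1, against 8.31, 8.72 and 7.25 in the same lines (1.43, SE 0.23, adjusted p = 0.00031), and KIF15 8.39 against 7.35, 7.85 and 5.37 (1.53, SE 0.25, adjusted p = 0.00033). KIF27, a relative of the Hedgehog regulator KIF7, averaged 7.51 in SUDHL-1, against 5.68, 6.31 and 6.25 (1.43, SE 0.23, adjusted p = 0.00027). KIF21B averaged 6.44 in SUDHL-1, against 7.99, 6.77 and 9.36, a difference of -1.60 (SE 0.20, adjusted p = 4.5e-05). With arrays centred the difference was -1.14 for KIF21B and 2.13 for KIF20B. After a second quantile normalization it was -1.39 for KIF21B and 1.83 for KIF20B. Without SUPM2 the difference of KIF15 was 0.79 and that of KIF21B -0.94. The call of KIF16B rested on SUPM2, since without that line its difference was -0.094 where it had been 0.56, and those of KIF11, KIF18B and KIF21A were also lost without SUPM2 (adjusted p = 0.068, 0.22 and 0.076). The call of KIF18B was lost as well with its probe sets averaged (adjusted p = 0.56).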

How the data were processed

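The deposited values are log2 signals per probe set on Affymetrix arrays, which the authors computed with RMA (version not given), according to the notes the submitters filed. RMA corrects background, quantile normalizes and summarises probes. No source used here says if 1 RMA run covered all arrays. Column medians ranged over 4.83 to 5.0 for SUDHL-1 arrays, and over 5.24 to 5.35 for the rest. Per the labels' protocols, RNA was amplified with a kit for picogram amounts. Arrays carry no read depth, so their number limits the precision.

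All 12 columns were used as deposited. Of 33297 probe sets, 19460 had 1 symbol in the platform annotation, 1754 several and 12083 none, and 5 probe sets with a kinesin among several symbols were left out. The probe set of highest mean stood for a gene with several, as for 4 kinesins (KIF18B, KIF22, KIF5A and KIFC1). The probe sets of a gene had the same sign of SP minus MP in every line for KIF18B and KIF22, opposite signs in DEL for KIFC1 (-0.11 used, 0.014 not) and opposite signs in all 4 lines for KIF5A. Entrez identifiers of all 41 matched RefSeq.

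limma 3.58.1 (R 4.3.3, lmFit and eBayes, two-sided, Benjamini-Hochberg over 18417 genes, threshold 0.05) was fitted to the 6 SUDHL-1 arrays, to 1 SP minus MP difference per line (n = 4, the pair given by the line label), to the interaction over 12 arrays, and to line plus population. Each of the 5 fits was tested on simulated data with 200 genes changed. A log2 change of 1 was recovered in 30% of cases in SUDHL-1, 59% over the 4 lines and 11% in the interaction. The recovery was 20% among DEL, Karpas299 and SUPM2 and 86% for SUDHL-1 against the other lines. For a change of 2 it was 74% to 95%. Members, classes and lists were chosen with earlier results of these data known, so lists are given by counts and medians. In full are given the 4 kinesins of largest mean difference per class, KIF11, KIF23, KIFC1 and KIF5B, and the 5 of smallest p in each line comparison, and up to 3 genes of smallest p per other list. Other kinesins with values (KIF18B, KIF3A, KIF5A, KIF14 and KIF4A among them) were picked after their values were seen.

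Alternatives left out the lowest 25% of genes by signal, quantile normalized again, centred arrays, averaged probe sets, used a robust trended variance, array weights, a replicate block or other sets of arrays, and dropped single lines or single SUDHL-1 arrays. The counts and class gaps without single arrays or arrays numbered 3, and the counts of sign changes, were added after seeing the data.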

Additional observations from a re-analysis of the deposited data

Results flagged for a closer look

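For 23 kinesin groups of 4 line differences each, the highest and the lowest line were compared with the rest, and in 4 of them 1 line lay far from the others by Dixon's criterion. Its rate of about 1 in 20 by chance holds for unselected values of equal spread, which these are not, since the genes were picked by size and SUDHL-1 is a mean of 3 against 3 arrays, so nothing is read from the number. KIF13B stood at -0.89 in SUPM2, where the other lines lay between -0.099 and -0.035. KIF20B stood at 1.02 in Karpas299, against 0.34 to 0.41 in the other lines. KIF1B stood at 0.043 in DEL, against -0.28 to -0.24 elsewhere, but the SUDHL-1 value was 0.37 without MP array 3. KIF9 stood at -0.0040 in SUPM2, against -0.21 to -0.20. Each of the lines that stood apart had 1 SP and 1 MP array, so the deviation has no replicate check.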

How the results depend on the processing

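For SP against MP in SUDHL-1, over the 4 lines and in the interaction, 0 kinesins passed the adjusted threshold under every alternative run. The counts ran from 7 to 9 among DEL, Karpas299 and SUPM2, and from 17 to 26 for SUDHL-1 against the other lines. The share of all genes called moved too. Among DEL, Karpas299 and SUPM2 it was 13.4% in the main fit (7 kinesins) and 7.50% with only their 6 arrays (8 kinesins). For SUDHL-1 against the other lines it was 51.0% after quantile normalization (19 kinesins). The mitotic median stayed between 0.38 and 0.83 in SUDHL-1 and between 0.40 and 0.59 over the 4 lines. The transport median in SUDHL-1 was -0.088 to 0.078 with 1 array left out and 0.18 without both arrays numbered 3, and over 4 lines it was 0.052 without DEL. The median of the other kinesins in SUDHL-1 was -0.091 with array weights and -0.16 without both arrays numbered 3, and ran from -0.12 to 0.053 with 1 array left out. The number of arrays limits all of these, and the cause of the shifts was not tested.

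With an array, both arrays numbered 3 or a line left out, 21 of 41 kinesins changed sign in SUDHL-1 (0 mitotic, 14 transport and 7 others) and 19 over the 4 lines (0, 12 and 7), none of them past the threshold in SP against MP. The kinesins chosen by rule did so as follows. In SUDHL-1, array weights gave 0.031 for KIF13B, 0.11 for KIF1B and -0.48 for KIF24, quantile normalization gave -0.017 for KIF24, and leaving out both arrays numbered 3 gave 0.31 for KIF13B, 0.52 for KIF1B, -0.17 for KIF24 and -0.029 for KIF25. With 1 array left out, values on both sides of 0 were found for KIF13B (-0.34 to 0.15), KIF5B (-0.088 to 0.15), KIF1B (-0.72 to 0.37), KIF24 (-0.26 to 0.34), KIF25 (-0.076 to 0.24), KIF16B (-0.040 to 0.32) and KIF21B (-0.13 to 0.31). Over the 4 lines, leaving out both arrays numbered 3 gave 0.019 for KIF1B, leaving out 1 array gave -0.12 to 0.023 for KIF27, and leaving out a line gave -0.012 for KIF12 and 0.13 for KIF21B (SUPM2), and 0.11 (DEL) and 0.070 (SUDHL-1) for KIF27. KIF16B in SUDHL-1 against the other lines was -0.094 without SUPM2.

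Over all genes, same-numbered SP and MP arrays of SUDHL-1 did not deviate together (correlations -0.0037, -0.077 and -0.13), so the numbers were not taken as pairs. For the mitotic kinesins, array 3 had the lowest mean in both groups (7.75 in SP and 7.22 in MP cells). With the replicate block 0 kinesins were called. The mitotic median of 0.52 could not change with this block, since each number has 1 SP and 1 MP array.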
